A study of Caenorhabditis elegans with 2 samples.

Results

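The cell cycle and DNA replication genes described here are the protein-coding genes of C. elegans whose symbols start with mcm-, orc-, rfc-, cdc-, cdk-, cya-, cyb-, cyd-, cye-, knl- or pcn-, without cdc-42. The rule, which uses symbols and no measured value, found 55 genes among 19973 nuclear protein-coding genes of the WBcel235 assembly. By best known role, 19 act in DNA replication and 20 in cell cycle control and division. The other 16 share a symbol with these but are best known outside the cell cycle, such as the p97 ATPase genes cdc-48.1 and cdc-48.2 and the transcriptional kinase genes cdk-8 and cdk-9.

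CEBP-1 belongs to the C/EBP branch of bZIP transcription factors, and its binding was mapped by chromatin immunoprecipitation with sequencing (ChIP-seq). The only group was whole young adult worms, of mixed sex and grown for 63 hours from starved, synchronized L1 larvae, of strain OP563 with the genotype unc-119(tm4063) III; wgIs563. The sources used here do not say what drives the transgene. In this line CEBP-1 carries GFP and FLAG at its C terminus, the chromatin was precipitated through GFP, and there were 2 biological replicates, numbered 3 and 7. No read counts were used, so the depth is unknown. With 1 group and no untagged strain analysed here, no test between groups was possible, and signal that needs the tagged protein cannot be told apart from signal that does not. In whole worms, binding in few cells and weak binding in many cells cannot be told apart either.

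In most eukaryotes the origin recognition complex (ORC) marks origins, and CDC-6 helps it to load the ring-shaped MCM helicase. Replication factor C (RFC) places the sliding clamp PCNA on DNA for the polymerases. Cyclins bind and switch on cyclin-dependent kinases (CDKs), CDC25 phosphatases remove their inhibitory phosphates, and the KNL proteins build the centromere and kinetochore to which spindle microtubules attach. In adult C. elegans somatic cells no longer divide, and the germline is the main dividing tissue. CEBP-1 itself is best known for axon regrowth and stress responses.

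A promoter was taken as the 1000 bp before and the 200 bp after a gene's annotated 5′ end. Of the 55 genes, 21 (38.2%, Wilson 95% interval 26.5 to 51.4) had at least 1 summit of the authors' optimal peak list there, against 14.9% of all protein-coding genes (2980 of 19973). The optimal list holds the 5982 peaks of highest signal value in the pooled list of 30000. The share was 36.8% of the replication genes (7 of 19), 30% of the control and division genes (6 of 20) and 50% of those best known outside the cell cycle (8 of 16). The intervals of these 3 shares overlap, and no difference between roles was tested. Intervals cover counting error only, and genes are not independent replicates.

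**Figure D1:**
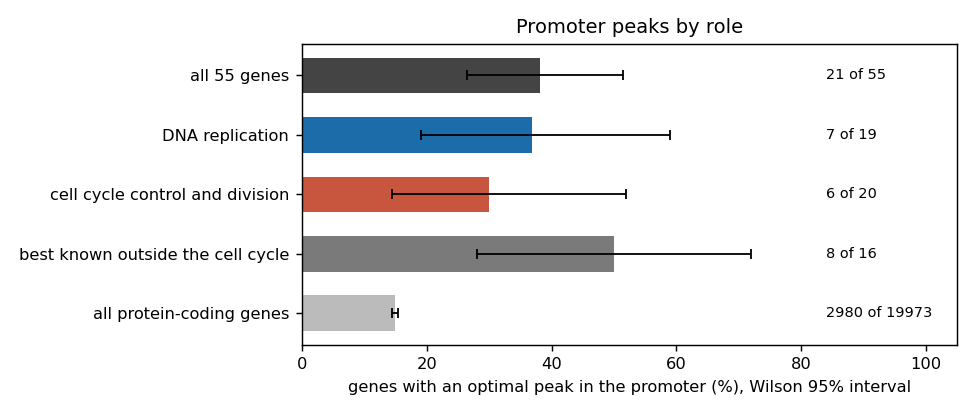
Share of genes with an optimal peak in the promoter, in percent, for all 55 genes, for 3 groups by role and for all protein-coding genes. Bars start at 0, lines are Wilson 95% intervals, and the counts stand at the right. The 3 role groups lie between 30% and 50% with overlapping intervals, and all protein-coding genes at 14.9%.

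The authors' signal value, the peak's own value, ranks peaks within a list. A relative signal sets each replicate on a common scale. It is the signal value of that replicate's strongest summit within 100 bp of the optimal summit, over the median of that value. The median was taken over the optimal peaks that had such a summit in the replicate. It was 204 in replicate 3 (5723 peaks) and 112 in replicate 7 (5499 peaks). Each of the 21 genes had exactly 1 optimal summit in its promoter, all at different peaks. Over the 21 genes the rank ran from 112 to 5745 with a median of 1478, and the median over the best peaks of all 2980 genes with a promoter peak was 2378. Of the 21, 8 had a signal value above 703, the upper quartile of those peaks, and 4 one below 227, the lower quartile.

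**Figure D2:**
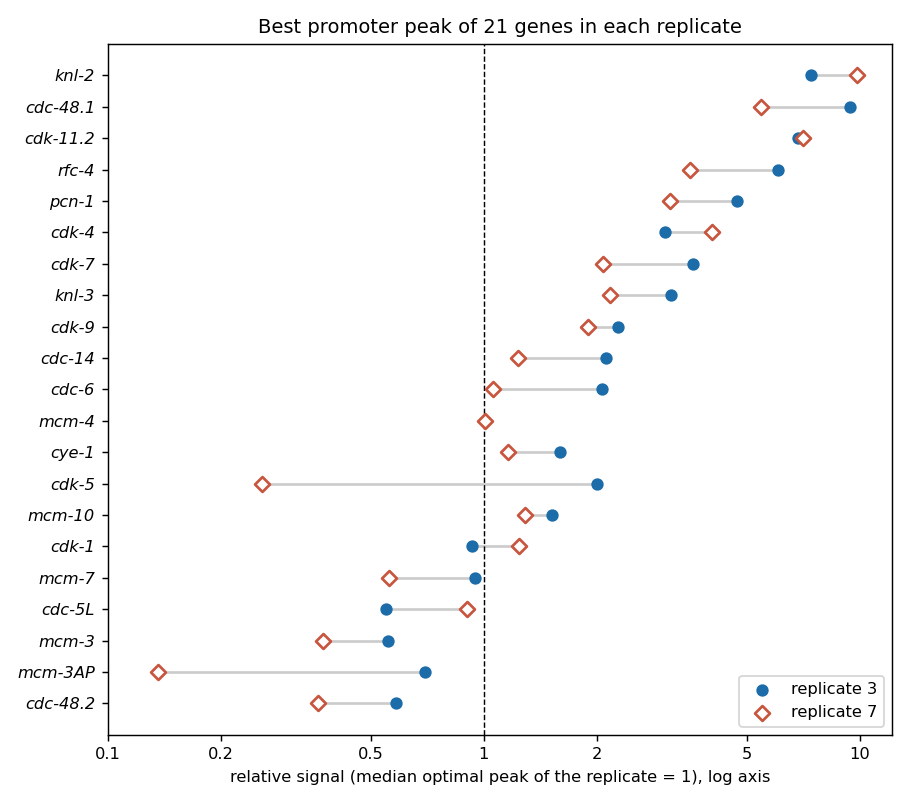
Relative signal of the best promoter peak of 21 genes in replicate 3 (filled circles) and replicate 7 (open diamonds), on a log axis, with genes in the order of their rank in the pooled list. A value of 1 (dashed line) is the median over the optimal peaks matched in that replicate. The highest values are those of knl-2, cdc-48.1 and cdk-11.2, and mcm-4 has no circle because no summit was listed for it in replicate 3.

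Among replication genes, the clamp and its loader had the strongest peaks. The peak of rfc-4 (WBGene00004340), which encodes a subunit of the clamp loader, covered chrIII:6971829-6972293 and ranked 262. Its relative signal was 6.05 in replicate 3 and 3.53 in replicate 7 (4.79 ± 1.78, mean ± SD, n = 2, as for all such values). The summit lay 178 bp upstream of rfc-4 and 363 bp upstream of eef-1A.1, a translation elongation factor gene on the other strand, and inside the microRNA gene cel-mir-5549. The peak of pcn-1 (WBGene00003955), the PCNA gene, covered chrIV:4049449-4049967, 248 bp upstream, and ranked 383. It had 4.72 in replicate 3 and 3.12 in replicate 7 (3.92 ± 1.13). Both genes were above the median peak in each replicate. The other 3 clamp loader genes had no optimal promoter peak. A weaker promoter summit was listed for each in the pooled list, at rank 6926 for rfc-3, 8487 for rfc-1 and 11217 for rfc-2. Outside the promoter window, an optimal summit lay in the body of rfc-1, 302 bp downstream of its 5′ end, at rank 3202. Another lay in the body of rfc-3, 1141 bp downstream, at rank 3932.

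The sequence under the summit is shown for the 5 strongest peaks whose bases within 50 bp of the summit could be printed. Each line gives the strand of the gene named, 5′ to 3′, and capitals mark any of the fixed words described with the motifs. The windows are cdc-48.1 at chrII:10563520-10563620 (minus strand), cdk-11.2 at chrX:10419902-10420002 (minus), rfc-4 at chrIII:6972025-6972125 (plus), pcn-1 at chrIV:4049646-4049746 (minus) and cdk-4 at chrX:13519359-13519459 (minus), in ce11.
cdc-48.1: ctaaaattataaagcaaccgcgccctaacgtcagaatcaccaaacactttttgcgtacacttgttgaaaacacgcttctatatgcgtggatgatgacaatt
cdk-11.2: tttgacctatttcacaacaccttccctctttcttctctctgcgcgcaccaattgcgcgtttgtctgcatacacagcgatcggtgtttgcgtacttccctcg
rfc-4: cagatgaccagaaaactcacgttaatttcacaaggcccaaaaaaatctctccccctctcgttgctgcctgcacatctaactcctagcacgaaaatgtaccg
pcn-1: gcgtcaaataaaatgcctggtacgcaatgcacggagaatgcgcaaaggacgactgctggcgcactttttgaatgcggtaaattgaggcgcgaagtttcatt
cdk-4: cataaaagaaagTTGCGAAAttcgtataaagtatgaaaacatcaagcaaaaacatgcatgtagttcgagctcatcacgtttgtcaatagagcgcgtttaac
Of these 5 windows, only that of cdk-4 held a fixed word. Their G+C share ran from 35.6% (cdk-4) to 50.5% (cdk-11.2), and over the 21 genes it had a median of 48.5%, against 44.6% over all 2334 promoter peaks.

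The replicative helicase had peaks at 3 of its 6 subunit genes (50%, Wilson 95% interval 18.8 to 81.2, against 14.9% of all genes). These were mcm-3, mcm-4 and mcm-7, and none of the 3 was among the top 5982 peaks of both replicates. With the strongest 50% of optimal peaks the count was 1 (against 9.16% of all genes). It was also 1 without replicate 3 (against 13.5%), and 2 without replicate 7 (against 15.7%). The mcm-7 peak, 171 bp upstream at rank 3513, had a relative signal of 0.946 in replicate 3 and 0.561 in replicate 7 (0.754 ± 0.272). The mcm-3 peak, 162 bp upstream at rank 5641, had 0.558 in replicate 3 and 0.374 in replicate 7 (0.466 ± 0.130). Its summit lay nearer to a divergent neighbour, C25D7.15, 47 bp upstream of that gene. The mcm-7 summit also lay in the promoters of hpo-18 (570 bp upstream) and figl-1 (996 bp upstream), but nearest to mcm-7. The mcm-4 peak, 167 bp upstream at rank 1677, had 1.01 in replicate 7. In replicate 3 no listed interval covered its summit, and the nearest listed summit was 3049 bp away. The remaining subunit genes, mcm-2, mcm-5 and mcm-6, had no summit in the pooled list, and replicate 7 alone listed one for mcm-5 at rank 10935 and for mcm-6 at rank 10718.

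The 3 helicase peaks shared a sequence word. Any of 4 E2F-type words, TTTGGCGC, TTTCCCGC, TTTGCGCG and TTTCGCGC on either strand, lay wholly within 50 bp of 3 of the 21 summits (14.3%), against 5.14% of the 2334 promoter peaks of all genes. Within 100 bp it was 5 of 21 (23.8%), against 7.97%. All these matches were to TTTCGCGC, and the other 3 words were at none of the 21. At 50 bp the 3 were the helicase genes. The word TTTCGCGC resembles the binding site of E2F, the factor family that drives S-phase genes in animals. Of all promoter peaks, 34 (1.46%) held that word within 50 bp and 2.27% within 100 bp, where it was also present at cye-1 and pcn-1. It was singled out after its matches were seen. The sites of mcm-3 at chrV:15059726-15059753 (plus strand) and mcm-7 at chrV:4347008-4347035 (minus strand) read as follows in ce11, with the word in capitals.
mcm-3: aacagcaaggTTTCGCGCgctcgctccg
mcm-7: tccgttcgaaTTTCGCGCgtttgcctcc
The centre of the word lay 21.5 bp from the summit at mcm-3, 39.5 bp at mcm-4, 26.5 bp at mcm-7, 48.5 bp at cye-1 and 63.5 bp at pcn-1. This match to letters is a description and does not show that E2F or CEBP-1 is bound there.

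Across whole promoters, 5 of 6 helicase genes held any of the 4 E2F-type words, among them mcm-5 and mcm-6, which had no peak. Such a word was also found at 4 of 5 clamp and loader genes. It was found at 3 of 5 phosphatase genes, at 4 of 11 cell cycle CDK and cyclin genes and at 2 of 8 origin genes. None of the 3 kinetochore genes and none of the 16 genes best known outside the cell cycle had one. All promoters held one in 15.3% of cases. Among the 55 genes, those with a peak held such a word in 28.6% of cases (6 of 21) and those without a peak in 35.3% (12 of 34). Among all protein-coding genes the values were 21.2% with a peak and 14.2% without.

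The 5 ORC genes had no optimal promoter peak (Wilson 95% interval 0 to 43.4%, against 14.9% of all genes). Of the 8 origin genes, cdc-6 and mcm-10 had one (25%, Wilson 95% interval 7.15 to 59.1). The cdc-6 peak, at rank 1478, had a relative signal of 2.06 in replicate 3 and 1.06 in replicate 7 (1.56 ± 0.702). Its summit lay 284 bp upstream of cdc-6 but 95 bp upstream of acin-1, a divergent neighbour. The peak of mcm-10, a factor that activates the loaded helicase, ranked 1925 with 1.52 in replicate 3 and 1.29 in replicate 7 (1.41 ± 0.164), 333 bp upstream and inside the gene teg-1.

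The ORC genes orc-1 and orc-4, lay just outside the limit of the optimal list. The genes just inside the 5982 peaks were mcm-3 (rank 5641), mcm-3AP (5690) and cdc-48.2 (5745), and the genes just outside were orc-1 (6426), orc-4 (6737) and rfc-3 (6926). In the pooled list orc-3 had a summit at rank 11799 and orc-2 at 13847, and orc-5 had none. Among the top 5982 peaks of replicate 3 alone, orc-1 had a promoter peak, at rank 5660, while replicate 7 listed it at 13854. A peak 1189 bp upstream of orc-2 ranked 1575, but it lay 131 bp from the 5′ end of cyn-4. A peak 1452 bp upstream of cdc-7, a kinase gene whose product triggers origin firing, ranked 1406 and lay 768 bp from that of vpr-1.

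Of the cell cycle kinases, cdk-4 and cdk-1 had peaks and cdk-2 had none, while 1 of 8 cyclin genes, cye-1, had one (12.5%, Wilson 95% interval 2.24 to 47.1, against 14.9% of all genes). The peak of cdk-4, the partner of D-type cyclins in G1, covered chrX:13519175-13519638 and ranked 555. It had 3.03 in replicate 3 and 4.04 in replicate 7 (3.53 ± 0.714). The peak of cdk-1, the mitotic kinase, ranked 2808 with 0.929 in replicate 3 and 1.24 in replicate 7 (1.08 ± 0.217). The peak of cye-1, the cyclin E gene of the G1 to S transition, ranked 1846 with 1.60 in replicate 3 and 1.16 in replicate 7 (1.38 ± 0.312). These peaks were in the top 5982 of both replicates.

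For all 3 of these genes the summit lay nearer to a divergent neighbour. It was 498 bp upstream of cdk-4 but 254 bp upstream of F18H3.1. It was 181 bp upstream of cdk-1 but 98 bp upstream of iff-1, and 555 bp upstream of cye-1 but 93 bp upstream of pqn-21. Which gene such a peak acts on was not tested. A second summit lay in the body of cye-1, 970 bp downstream of its 5′ end, at rank 1452, with 1.42 in replicate 3 and 2.33 in replicate 7.

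The other cyclin genes had weak summits or none. No summit was listed in any promoter of cyd-1, the partner of cdk-4, nor of cya-2, cyb-2.1 or cyb-2.2, in the pooled or replicate lists. The mitotic cyclin genes cya-1 and cyb-3 had pooled summits at ranks 14308 and 13914, and cyb-1 one in replicate 7 alone, at rank 21757. A peak 1982 bp upstream of cyb-3 ranked 1763, and the nearest 5′ end was that of T06E6.1, 1247 bp away. The summit of replicate 7 at cyb-1 lay between it and orc-5, which are transcribed away from each other. The kinase gene cdk-2 had a pooled summit at rank 14745, and an optimal summit in its body, 3908 bp downstream, at rank 5288.

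Of the 5 phosphatase genes 1 had a peak (20%, Wilson 95% interval 3.62 to 62.4, against 14.9% of all genes). This was cdc-14, which counteracts CDKs at the end of mitosis in yeast. Its peak ranked 1398 with 2.11 in replicate 3 and 1.23 in replicate 7 (1.67 ± 0.622), 334 bp upstream. Of the 4 CDC25 genes, 3 (cdc-25.2, cdc-25.3 and cdc-25.4) had no promoter summit in any list, and cdc-25.1 had one in replicate 7 only, at rank 16046. The one anaphase-promoting complex gene under the rule, cdc-26, also had a summit in replicate 7 only, at rank 6502.

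The strongest peak of all 55 genes was that of knl-2 (WBGene00019432), which is needed to load the centromeric histone. It covered chrI:6460069-6460623, 512 bp upstream, and ranked 112. It had 7.42 in replicate 3 and 9.86 in replicate 7 (8.64 ± 1.73), and it held TTGCGAAA 11.5 bp from its summit. A further summit 1194 bp upstream ranked 1527. Another, 1902 bp upstream, ranked 2840 and lay 497 bp from the 5′ end of rab-10. The peak of knl-3, a part of the outer kinetochore, ranked 740 with 3.14 in replicate 3 and 2.17 in replicate 7 (2.65 ± 0.687). Its summit lay 416 bp upstream of knl-3, inside the 5′ UTR of T10B5.3. The scaffold gene knl-1 had no pooled summit and one in replicate 7 at rank 6817.

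Among the genes best known outside the cell cycle were the 2 strongest peaks after knl-2. The peak of cdc-48.1, whose product extracts ubiquitinated proteins from complexes, ranked 115. It had 9.40 in replicate 3 and 5.47 in replicate 7 (7.44 ± 2.78). Its close paralog cdc-48.2 ranked 5745, with 0.586 in replicate 3 and 0.362 in replicate 7 (0.474 ± 0.158), so the ranges of the 2 genes over replicates do not overlap. The peak of cdk-11.2, one of 2 genes for CDK11-type kinases, ranked 151 and was nearly equal in the replicates, with 6.85 in replicate 3 and 7.05 in replicate 7 (6.95 ± 0.142). Its paralog cdk-11.1 had no optimal peak and a pooled summit at rank 17684. How reads that match both paralogs were counted is not given in the sources used here.

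The transcriptional kinases were divided. The peak of cdk-7, the kinase of the general factor TFIIH and the CDK-activating kinase, ranked 659 with 3.61 in replicate 3 and 2.07 in replicate 7 (2.84 ± 1.09), 52 bp upstream. Despite its role as the CDK-activating kinase, cdk-7 was counted among the genes best known outside the cell cycle. The peak of cdk-9, the P-TEFb kinase of elongating RNA polymerase, ranked 1102 with 2.28 in replicate 3 and 1.89 in replicate 7 (2.09 ± 0.275). Its summit lay 138 bp upstream of cdk-9 and 279 bp upstream of hxk-2, a hexokinase gene. The genes cdk-8 of the Mediator and cdk-12 of elongation had no optimal promoter peak. A summit for cdk-8 ranked 8608 in the pooled list, and cdk-12 had 2 optimal summits in its body, at ranks 3931 and 5816, the second of which lay nearer to the 5′ end of B0285.3.

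The peaks of cdk-5 and mcm-3AP rested on 1 replicate. For cdk-5, a kinase that acts in neurons, the relative signal was 2.0 in replicate 3, at rank 1284, and 0.258 in replicate 7, at rank 16774. The summit lay 64 bp upstream of cdk-5, inside the gene kel-3. Further optimal summits in the cdk-5 body, at ranks 3569 and 4972, lay 48 and 378 bp from the 5′ end of kel-3. For mcm-3AP, named after a vertebrate mRNA export factor, the relative signal was 0.696 in replicate 3 and 0.136 in replicate 7. The splicing factor gene cdc-5L went the other way, with 0.550 in replicate 3 and 0.903 in replicate 7 (0.727 ± 0.250). The genes cdc-37, cdc-48.3, cdc-73, cdc-50.B and cdk-14 had no optimal promoter peak, and pooled summits at ranks 12721 (cdc-37), 18434 (cdk-14) and 23676 (cdc-48.3).

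Relative signal was higher in replicate 3 than in replicate 7 at 15 of the 20 genes matched in both, and at 66.8% of all genes with a peak matched in both. Of the 21 peaks, 20 (95.2%) were among the top 5982 of replicate 3, against 90.8% of the peaks of all genes. Among those of replicate 7 were 16 (76.2%), against 73% of the peaks of all genes. Both replicates held 15 (71.4%), against 65.7% of the peaks of all genes. The 6 without such support were mcm-3, mcm-4, mcm-7, mcm-3AP, cdk-5 and cdc-48.2. Counting the top 5982 peaks of replicate 7 alone, 16 of the 55 genes had a promoter peak, against 13.5% of all genes, and with replicate 3 alone 21 had one, against 15.7%. With optimal peaks in the top of both replicates it was 15, against 9.91% of all genes. With the strongest 50% of optimal peaks it was 16, against 9.16%, and with each peak given to its closest gene alone also 16, against 11.6%.

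The summits of the 21 genes lay between 52 and 555 bp upstream, and none lay downstream of the 5′ end, where 9.13% of all genes' best summits lay. Of them, 15 lay 100 to 350 bp upstream (71.4%, against 42.5% of all genes with a peak), and the limits of this band were not varied. The median position was -187 bp (upstream negative), against -238 bp over all genes with a peak (quartiles -468 and -109 bp). With a narrow window (500 bp before the 5′ end, 100 bp after it) 19 of the 55 genes kept a peak, against 11.5% of all genes, and with a wide one (2000 bp before, 500 bp after) 25 had one, against 19.8%. The annotated 5′ end of many C. elegans genes is a trans-splice site and not the start of transcription, so these distances are to the annotation only.

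**Figure D3:**
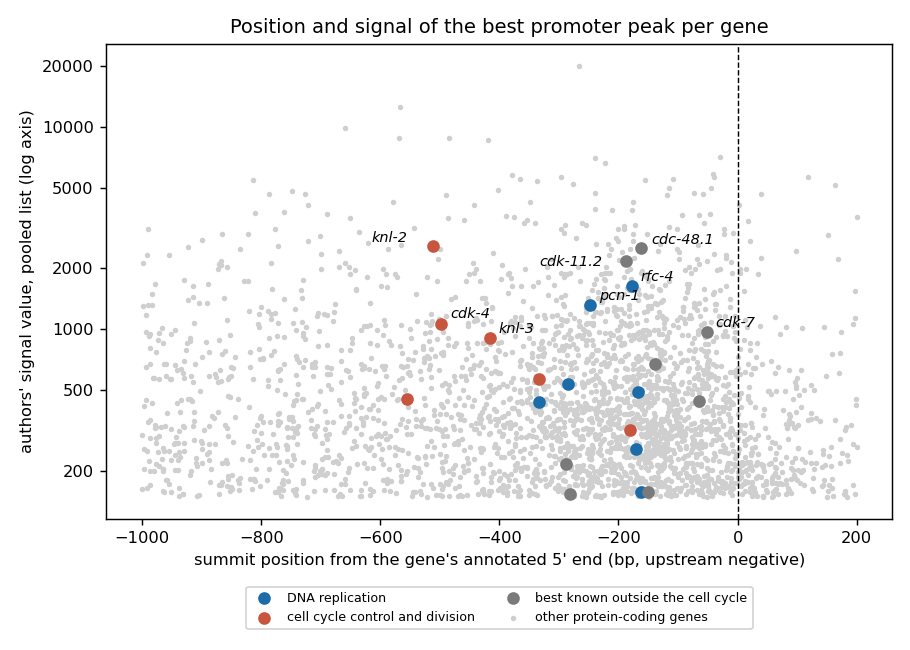
Position of the best promoter summit from the annotated 5′ end (horizontal axis, bp) and its signal value in the pooled list (vertical log axis), 1 point per gene. Large points are the 21 genes, coloured by role, and small grey points all other protein-coding genes with a promoter peak. All 21 lie left of the dashed line at the 5′ end, and those ranked 740 or better are named.

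Of the 21 peaks, 9 (42.9%) were also in the promoter of another protein-coding gene, against 42.4% of all genes with a peak. In the wide window it was 17 of 25, against 55.7%. Among the 55 genes, a divergent neighbour lay within 1000 bp upstream of 18, and 8 of these had a peak (44.4%, against 29.5% of all genes so arranged). A neighbour on the same strand lay within that distance of 13 genes, and 5 had a peak (38.5%, against 13.3% of all genes so arranged). No gene lay there for 20, and 5 had a peak (25%, against 10.9%). The 5′ end was inside another gene for 4, and 3 had a peak (75%, against 12.8%). None of the 21 summits was within 200 bp of a tRNA, snoRNA or snRNA gene. The share over the peaks of all genes was not counted, so this cannot be called particular to these genes. By chromosome, 7 of 15 had a peak on I (46.7%, against 20.9% of all genes there), 3 of 10 on II (30%, against 13.3%) and 4 of 13 on III (30.8%, against 23%). On IV it was 2 of 9 (22.2%, against 14.2%), on V 3 of 6 (50%, against 10.5%), and on X 2 of 2, cdk-4 and cdk-11.2, against 11.9%.

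The fixed words, searched on both strands, were found within 50 bp of 5 of the 21 summits (23.8%), against 29.4% of all promoter peaks. The C/EBP words TTGCGCAA, TTACGTAA, TTACGCAA and TTGCGTAA, of which the last 2 are each other's reverse complement, were at none of the 21, and at 1.33% of all promoter peaks. Also at none were the C/EBP-ATF composite TGATGCAA (0.814% of all), the AP-1 site TGACTCA (1.76%), the E-box CACGTG (4.58%) and GAGAGAGA (3.90%). The word TTGCGAAA was at knl-2 and cdk-4 (9.52%, against 14.9% of all). Its reverse complement begins with the same letters, TTTCGC, as the E2F-type word TTTCGCGC, but the full words differ. Within 100 bp the C/EBP words were also at none of the 21 (2.06% of all promoter peaks). Over whole promoters they were at 5 of the 55 genes (9.09%, against 5.6% of all promoters). Within 100 bp TTGCGAAA was at 3 of the 21 (14.3%, against 16.8%) and TGACTCA at 1 (4.76%, against 3.86%). No match says only that these letters are absent from the window.

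Of the 34 genes without an optimal promoter peak, 15 had a weaker summit in the pooled list (44.1%, against 16.3% of all genes without one). Replicate 3 listed a summit for 14 of the 34 (41.2%, against 17.2% of all genes without an optimal promoter peak) and replicate 7 for 22 (64.7%, against 20.5%). No list held a promoter summit for 10 of them (29.4%, against 73%), namely mcm-2, cyd-1, cyb-2.1, cyb-2.2, cya-2, cdc-25.2, cdc-25.3, cdc-25.4, cdk-12 and cdc-50.B. Of the 34, 7 had an optimal summit in the gene body or up to 2500 bp upstream (20.6%, against 11.5%).

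**Figure D4:**
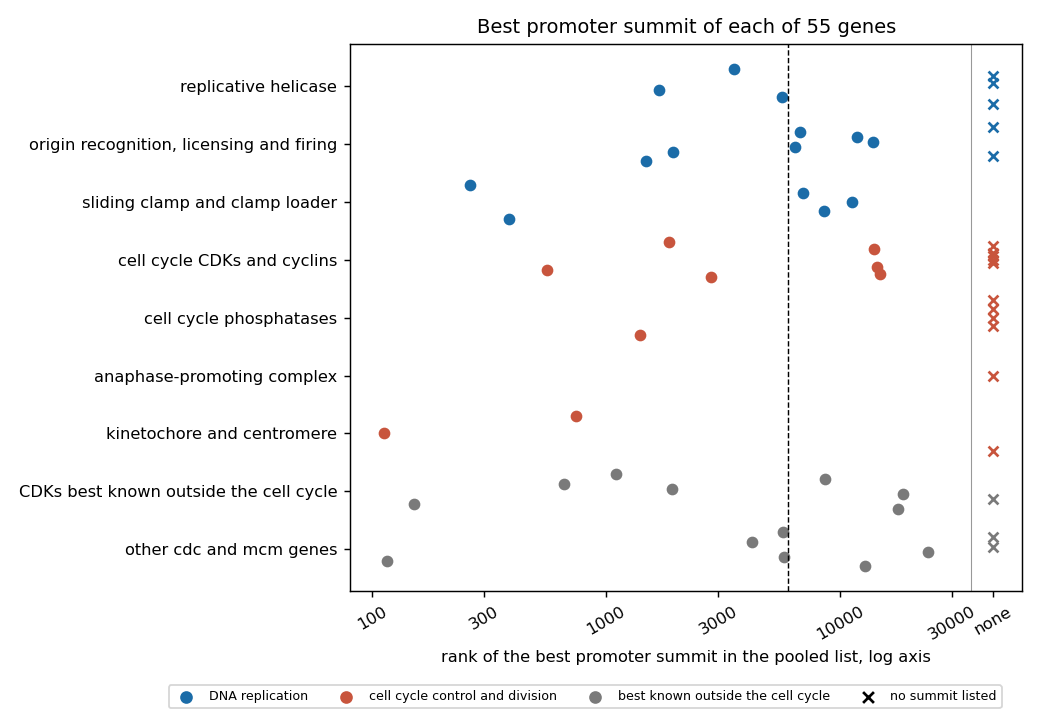
Rank of the best promoter summit in the pooled list for each of 55 genes (log axis), in rows by role. The dashed line marks the last of the 5982 optimal peaks, and crosses at the right are genes with no listed promoter summit in the pooled list. The orc and rfc genes with a weaker summit lie between ranks 6426 and 13847, and most cyclin and phosphatase genes have no summit.

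The same cell functions include genes with other symbols, and 122 of these were counted from a list of polymerases, replisome factors, checkpoint genes, mitotic kinases, kinetochore parts, cohesin and condensin. Of them, 52 had a promoter peak (42.6%, Wilson 95% interval 34.2 to 51.5, against 14.9% of all protein-coding genes). The share was highest among GINS, licensing and replisome factors (8 of 14, interval 32.6 to 78.6%). It was lowest for the anaphase-promoting complex and mitotic exit (5 of 15, 15.2 to 58.3%). It was equally low for single-strand binding, ligase, flap nuclease and nucleotide supply (4 of 12, 13.8 to 60.9%). These intervals overlap, and no difference between the groups was tested. The strongest was pri-2, a subunit of primase, at rank 38 with 13.1 in replicate 3 and 17.4 in replicate 7 (15.3 ± 3.05), a peak shared with W02D9.2. It was followed by rpa-2, a single-strand binding protein (rank 512), efl-1, an E2F factor (667), cls-2, a CLASP protein of the spindle (672), top-2, topoisomerase II (691), and ctf-4, a replisome factor (695). The peaks of efl-1, cls-2, top-2 and ctf-4 were each shared with a neighbour, and cls-2 had no summit within 100 bp in replicate 7.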

How the data were processed

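ChIP-seq of CEBP-1 tagged with GFP was analysed in 2 replicates of 1 group. The authors deposited narrowPeak lists in ce11: 30000 peaks and background for each replicate and for both pooled, and the optimal list filtered by IDR (irreproducible discovery rate, on how alike replicates rank peaks), per the deposited text files. The deposited signal value is computed against 1 control file. The deposited −log10 q-value was not used. Caller, IDR threshold and aligner are not given in the sources used here, and the lists hold no counts, so depth is unknown. The ce10 lists were not used.

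The optimal list equalled the top 5982 pooled peaks, which was checked. Peaks ended within each WBcel235 chromosome. Genes came from Ensembl release 115, bases from the RefSeq genome. Summits were column 2 plus column 10, printed 1-based. Wilson intervals used scipy 1.17.1 and Python 3.11.15. Every gene with a promoter peak is named, the others by pooled rank, and the 6 strongest related genes. For genes without such a peak, replicate ranks and summits elsewhere were added after their values were seen. The genes, role groups and lists were chosen with earlier results of these data known. Of 132 symbols listed for related functions, 122 matched. Window assignment was tested on planted summits. The replicate lists shared 0 signal values. Alternatives changed promoter width, 5′ end, peak list, gene assignment, summit distance, scaling and word window.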

Additional observations from a re-analysis of the deposited data

How the results depend on the processing

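The count of 21 genes stayed within 1.5 times under every change of promoter, peak list and gene assignment, from 15 to 25. Without replicate 3 it was 16 and without replicate 7 it was 21. It was 13 when the 16 genes best known outside the cell cycle were left out, of the 39 that remain. Over all genes the share, 14.9%, became 9.16% with the strongest 50% of peaks, 9.91% with peaks in the top of both replicates, 11.6% with each peak given to its closest gene alone and 13.5% without replicate 3. For replication genes, 7 became 4 with peaks in the top of both replicates, and for control and division genes, 6 became 3 of 20 with the closest gene alone. For genes best known outside the cell cycle, 8 became 5 with the strongest 50% of peaks, with peaks in the top of both replicates and without replicate 3 (8 without replicate 7). The 52 related genes became 32 with the strongest 50% and 34 with peaks in the top of both replicates. With the wide promoter 17 of 25 peaks were shared with another gene, against 55.7% of all genes' peaks, a window chosen for that count after seeing the data. Over whole promoters, 69.1% of the 55 genes held a fixed word, against 54.7% of all promoters. The median relative signal was 1.62, and 2.08 without replicate 7 or 1.24 without replicate 3. The causes were not tested. No paired analysis was possible because there was 1 group. Depth is unknown, so genes with weak or no summits cannot be called unbound.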
